A study of Mus musculus with 16 samples.

Results

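Fermentation of polysaccharides by bacteria of the cecum releases short-chain fatty acids, chiefly acetate, propionate and butyrate, and leaves little free sugar for the host. Colonocytes take up the acids through proton-coupled and sodium-coupled monocarboxylate carriers and burn butyrate as a fuel, while glucose and fructose enter epithelial cells through sodium-coupled cotransporters and facilitated carriers. Receptors for the acids on enteroendocrine cells and leukocytes couple their presence to hormone release and to inflammation.

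The genes described here were chosen by name, with earlier results of these data known, and the choice took in all probe sets annotated to 10 genes of short-chain fatty acid and sugar transport and sensing on the Affymetrix GeneChip of the whole mouse genome. They are the monocarboxylate carriers Slc16a1, Slc16a3 and Slc5a8, the carrier chaperone Bsg, the fatty acid receptors Ffar2 and Ffar3, and the sugar carriers Slc5a1, Slc2a1, Slc2a2 and Slc2a5. Of these 10 genes 9 had a probe set, 14 in all among 45101 on the GeneChip. Ffar3 was not named in the annotation used here and was not analysed. The test took in a probe set if, in 1 colonization state or more, both of its values exceeded the median of all values, a signal of 583.1. By that filter 12 of the 14 probe sets, for 7 genes, were tested together with 24865 probe sets in total, and the single probe sets of Slc16a3 and Slc2a2 were too dim. No probe set of these genes was shared with another gene.

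Epithelium was laser-captured from the cecum of adult male NMRI mice, all raised germ-free on a standard chow rich in plant polysaccharides. Mice were colonized for 10 days with both Bacteroides thetaiotaomicron and Bifidobacterium longum (Bt/Bl), with B. thetaiotaomicron alone (Bt) or with B. longum alone (Bl), or were left germ-free (GF). Each state was hybridized to 2 GeneChips, which carry the numbers 9132 and 9133 for Bt/Bl, 9130 and 9443 for Bt, 9134 and 9135 for Bl, and 9128 and 9129 for GF. Both GeneChips of a state were separate amplifications of 1 RNA pool from 4 mice, so that the spread between them is technical and each test compares 1 pool with another. Values are given below in this order of states and GeneChips, as linear MAS5 signals.

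The 11 epithelial markers were all detected above the floor on all 8 GeneChips, with a summed signal between 1377456 and 1847523. The GF GeneChips stood apart from the other 6 in several ways. Fabp6, which carries bile acids in ileal cells, had a signal of 1179 to 1798 on the 6 GeneChips of colonized mice, and of 68029 and 95108 on those of GF mice. Y-linked Eif2s3y had 3201 to 5657 on the GeneChips of colonized mice and 71.3 and 614.4 on the GF GeneChips, and Xist, which silences an X chromosome, 3753 to 11176 against 17157 and 22762, although the methods describe male mice. The summed signal of 11 leukocyte markers, mostly that of Igha, lay between 20379 and 60581 in colonized states and was 127750 and 114727 in GF. Jchain was also higher in GF, but Ptprc was not, with 777.8 and 1318 in GF and 538.3 to 1946 in colonized states. The 3′ to 5′ signal ratio of the Gapdh control was 8.93 to 17.6 in colonized states against 5.66 and 7.26 in GF, while that of the β-actin control was 21.4 to 36.3 in colonized states against 36.9 and 38.8 in GF. Every comparison with GF below rests on these 2 GeneChips, and their part in the results was not tested.

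None of the 12 probe sets passed the test in any comparison (limma, Benjamini-Hochberg adjusted p under 0.05 over 24865 probe sets). Few probe sets of any kind did. In Bt/Bl against GF 0 of 12 passed, where 0.197% of all probe sets did, in Bt against GF 0 of 12 against 0.169%, and in Bl against GF 0 of 12 against 0.137%. Between colonized states, 0 of 12 passed in Bt/Bl against Bt, where 0.0483% of all did, 0 of 12 in Bt/Bl against Bl, where 0.0563% did, and 0 of 12 in Bt against Bl, where 0.0442% did. The interaction, which is the Bt/Bl effect less those of Bt and Bl added together, passed in 0 of 12 probe sets and in 0.113% of all. The lowest adjusted p was 0.199, for Slc2a1 in Bl against GF. At an unadjusted p under 0.05, 5 of 12 probe sets differed in Bt/Bl against GF (7.39% of all probe sets), 1 in Bt against GF (9.49%) and 3 in Bl against GF (11.7%). It was 3 in Bt/Bl against Bt (10.5%), 1 in Bt/Bl against Bl (11.8%), 0 in Bt against Bl (11.9%) and 2 for the interaction (12%). Of the 5 in Bt/Bl against GF 3 were the probe sets of Slc2a1, which were also the 3 in Bl against GF. The 1 in Bt against GF was of Slc2a1 too, so these counts are not of independent genes.

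The GeneChips of the 2 states did not overlap for 7 of 12 probe sets in Bt/Bl against GF, where this was so for 41% of all probe sets, for 3 of 12 in Bt against GF (40%) and for 6 of 12 in Bl against GF (41.3%). Between colonized states it was 6 of 12 in Bt/Bl against Bt (43%), 2 of 12 in Bt/Bl against Bl (42.7%) and 5 of 12 in Bt against Bl (38%). All 3 probe sets of Slc2a1 were among the 7 without overlap in Bt/Bl against GF and among the 6 in Bl against GF. With 2 GeneChips a state such a gap is common, and a probe set without one had duplicates that differed as much as the states did. All values are limited in precision by how few GeneChips there were.

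**Figure D1:**
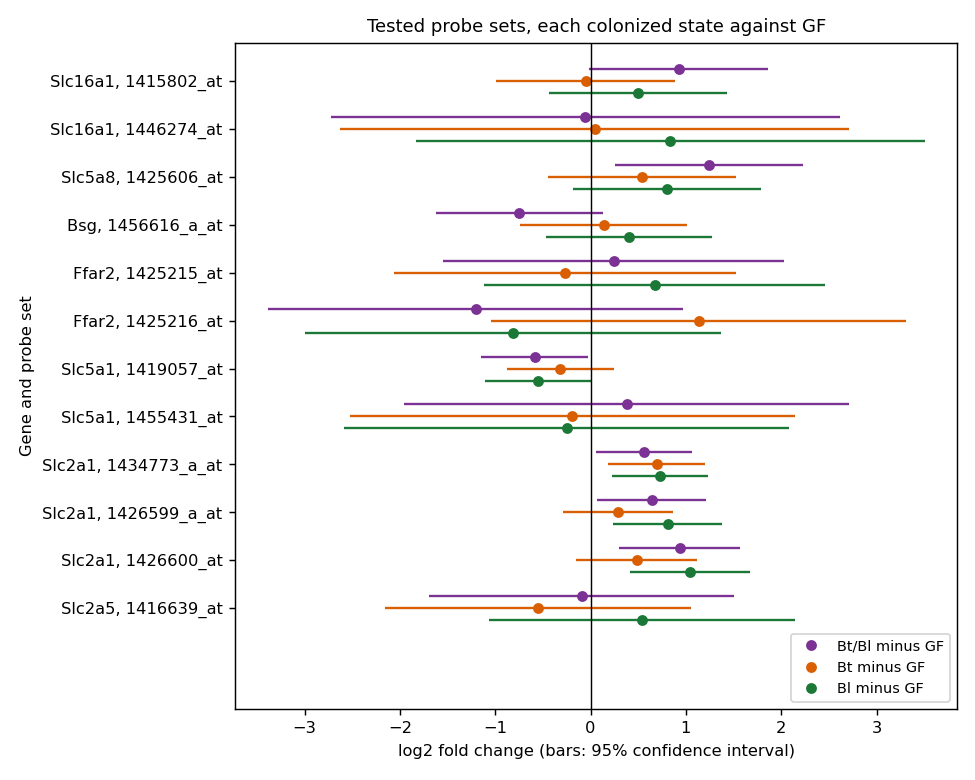
Log2 fold change (x axis) of each of the 12 tested probe sets (y axis) in Bt/Bl, Bt and Bl against GF, as points with 95% confidence intervals from limma. The intervals of 1 Slc2a1 probe set, 1434773_a_at, lie above 0 in all 3 states, and the dim probe sets of Ffar2, Slc16a1 and Slc5a1 have the widest intervals, all of which cross 0.

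Slc16a1 encodes the proton-coupled carrier through which colonocytes take up butyrate and exchange lactate and pyruvate. Its signal at 1415802_at was 9308 and 8367 in Bt/Bl, 3847 and 5231 in Bt, 3954 and 10934 in Bl, against 3112 and 6948 in GF. Both Bt/Bl GeneChips lay above those of Bt and of GF, while 1 Bl GeneChip was the highest of all 8 and the other was close to the lowest. The log2 fold change was 0.92 in Bt/Bl against GF (standard error 0.44, unadjusted p = 0.0527, adjusted p = 0.682 by limma), -0.05 in Bt against GF and 0.50 in Bl against GF. Against Bt it was 0.98 in Bt/Bl (95% confidence interval 0.04 to 1.91, adjusted p = 0.450). Leaving out 1 GF GeneChip moved the difference between Bt/Bl and GF to 0.35 without 9128 and to 1.50 without 9129. The other probe set of Slc16a1, 1446274_at, ranged from 42.2 to 1702 and differed as much between duplicates as between states, with an r of -0.13 to the first over the 8 GeneChips.

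Slc5a8 encodes the sodium-coupled carrier of butyrate and lactate on the luminal side of colonocytes. Its single probe set, 1425606_at, had a signal of 6115 and 4305 in Bt/Bl, 3538 and 2791 in Bt, 2374 and 6028 in Bl, against 1560 and 3010 in GF. Again both Bt/Bl GeneChips were above both of Bt and of GF, and the 2 Bl GeneChips spanned nearly the whole range. The mean signal was 5210 ± 1280 in Bt/Bl, 3164 ± 528 in Bt, 4201 ± 2584 in Bl and 2284.5 ± 1025 in GF (SD, n = 2 each). The log2 fold change against GF was 1.24 in Bt/Bl (2.37-fold, standard error 0.46, unadjusted p = 0.0169, adjusted p = 0.529), 0.54 in Bt (adjusted p = 0.771) and 0.80 in Bl (adjusted p = 0.529). It stayed between 0.77 and 1.72 in Bt/Bl with each GeneChip left out in turn.

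**Figure D2:**
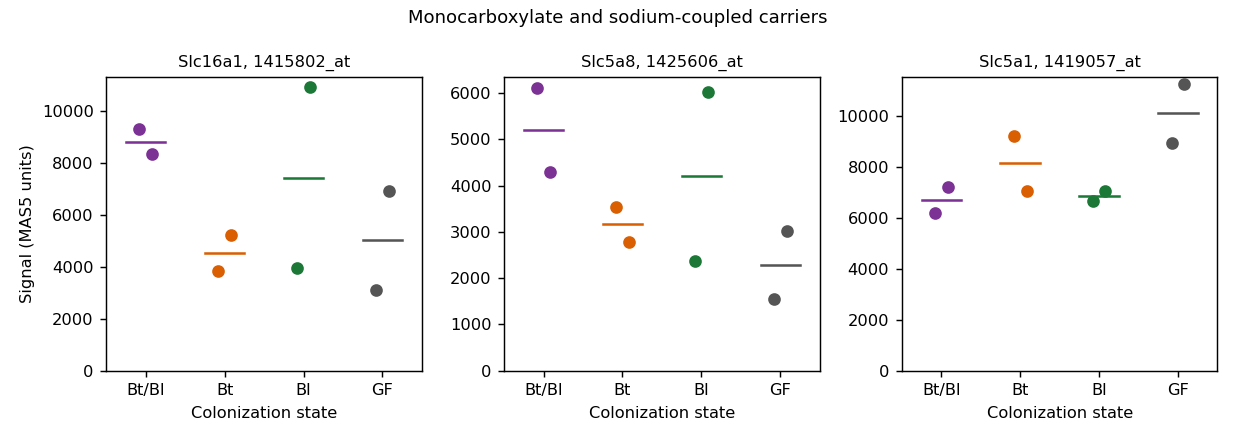
Signals of Slc16a1, Slc5a8 and Slc5a1 (y axis, MAS5 units, from 0) by colonization state (x axis), with a point for each GeneChip and a line at the mean of both. The Bl and GF duplicates of Slc16a1 and Slc5a8 lie apart in the same order, with 9135 and 9129 high, and the Slc5a1 signals of Bt/Bl and Bl lie below both GF values.

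The signals of these monocarboxylate carriers went together. Over the 8 GeneChips the r between Slc16a1 and Slc5a8 was 0.88, the highest of the 21 pairs among the 7 tested genes, with 1 probe set, the brightest, taken for each. The points share RNA pools and amplifications: in Bl the GeneChip 9135 and in GF the GeneChip 9129 were the higher of the pair for both genes. Epcam, an adhesion protein of epithelial cells, was also higher on these GeneChips, at 19029 and 30528 in Bl and 26022 and 34403 in GF. Cdh1, which encodes E-cadherin, had 20374 and 40972 in Bl and 33557 and 49926 in GF. Over the 11 epithelial markers the r to Slc16a1 ran from -0.67 for Tff3, a goblet cell peptide, to 0.66 for Cdh1, so the list as a whole did not follow it. For Slc5a8 it ran from -0.78, also for Tff3, to 0.44 for Cdh1. Among 12937 genes the patterns most like that of Slc16a1 were those of Chmp5 (r = 0.98), Coro2a (r = 0.97) and Fam91a1 (r = 0.96). The ones most like that of Slc5a8 were those of Ccdc97 (r = 0.97), N4bp2 (r = 0.96) and Cldn23 (r = 0.96), all over the same 8 GeneChips.

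The promoter windows of both carriers are shown, each from 250 bases before to 50 after the start that RefSeq gives on GRCm38.p6. That of Slc16a1 lies at chr3:104638414-104638713 and that of Slc5a8 at chr10:88885742-88886041, both on the plus strand. Capitals mark matches on either strand to the 5 motifs searched. The TATA box was searched as TATAAA, the E-box as CACGTG and the GC box as GGGCGG. From the HNF1 site GTTAAT was taken, and for Cdx factors TTTATG.
Slc16a1: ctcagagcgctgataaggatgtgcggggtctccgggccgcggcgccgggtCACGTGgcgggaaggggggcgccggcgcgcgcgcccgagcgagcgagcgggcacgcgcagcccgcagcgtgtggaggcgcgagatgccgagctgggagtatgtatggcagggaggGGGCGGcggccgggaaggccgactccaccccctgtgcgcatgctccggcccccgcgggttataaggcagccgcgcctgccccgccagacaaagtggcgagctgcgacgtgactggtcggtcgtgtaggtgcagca
Slc5a8: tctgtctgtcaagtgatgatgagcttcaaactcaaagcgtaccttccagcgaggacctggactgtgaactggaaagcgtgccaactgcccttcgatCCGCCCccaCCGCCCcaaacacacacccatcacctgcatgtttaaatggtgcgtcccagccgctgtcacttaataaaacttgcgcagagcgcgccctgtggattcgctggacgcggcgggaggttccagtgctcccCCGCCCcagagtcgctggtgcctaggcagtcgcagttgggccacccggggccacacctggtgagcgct
The Slc16a1 window held an E-box at position 51 and a GC box at position 166, and the Slc5a8 window GC boxes at positions 97, 106 and 233, counted from its first base. An E-box was found in 7.15% and a GC box in 35.7% of all 32851 RefSeq mouse windows of that length. GC content was 73.7% in the Slc16a1 window and 60.7% in that of Slc5a8, against a median of 52.7% over all windows, and CpG counts were 42 and 20 against a median of 7. Neither window held a match to the TATA box, HNF1 or Cdx motifs, which 13.6%, 7.1% and 11.9% of all windows held. No measurement of binding or methylation bears on these sequences.

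Bsg encodes basigin, the membrane glycoprotein that brings the proton-coupled carriers to the cell surface. Its probe set 1456616_a_at had a signal of 2890 and 2584 in Bt/Bl, 7193 and 3534 in Bt, 7796 and 4704 in Bl, against 6266 and 3354 in GF. Both Bt/Bl GeneChips were the lowest of all 8, though the duplicates of the other states differed widely. The log2 fold change in Bt/Bl was -1.15 against Bl (standard error 0.41, unadjusted p = 0.0134, adjusted p = 0.282), -0.88 against Bt (adjusted p = 0.470) and -0.75 against GF (adjusted p = 0.766). The interaction was -1.29 (unadjusted p = 0.0424, adjusted p = 0.396). Leaving out 1 GeneChip in turn moved the difference from Bl to between -1.51 and -0.78 and that from Bt to between -1.40 and -0.37. Its r to Slc16a1 was -0.73, the lowest of the 21 pairs.

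Bsg was also on the custom GlycoGeneChip, a GeneChip of genes for carbohydrate metabolism hybridized in duplicate with cecal epithelial RNA of the same 4 states. Its probe set BC010270_at had 18647 and 23037 in Bt/Bl, 31149 and 35016 in Bt, 30532 and 28468 in Bl, against 26808 and 26941 in GF. The probe set BC010270_s_at had 12549 and 13844 in Bt/Bl, 24008 and 17928 in Bt, 23804 and 18633 in Bl, against 16118 and 15243 in GF. On both, as on the whole-genome GeneChip, the 2 Bt/Bl GeneChips were below all 6 others. How many of all probe sets had this order was not counted on either type of GeneChip. The log2 fold change of BC010270_at was -0.67 in Bt/Bl against Bt (unadjusted p = 0.00684, adjusted p = 0.220 by limma over 451 probe sets) and -0.51 against Bl (adjusted p = 0.325). For BC010270_s_at it was -0.65 against Bt (adjusted p = 0.289) and -0.68 against Bl (adjusted p = 0.184). None passed, where 1.11% of the 451 probe sets passed in Bt/Bl against Bt, 1.55% in Bt/Bl against Bl and 1.55% in Bt/Bl against GF. Against GF the log2 fold changes in Bt/Bl were -0.37 and -0.25. The interaction was -0.81 (unadjusted p = 0.0205, adjusted p = 0.305) and -1.08 (unadjusted p = 0.00485, adjusted p = 0.137), also by limma, and did not pass either. Whether both types of GeneChip received RNA of the same pools is not stated in the labels, and the 2 probe sets on the GlycoGeneChip share hybridizations.

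**Figure D3:**
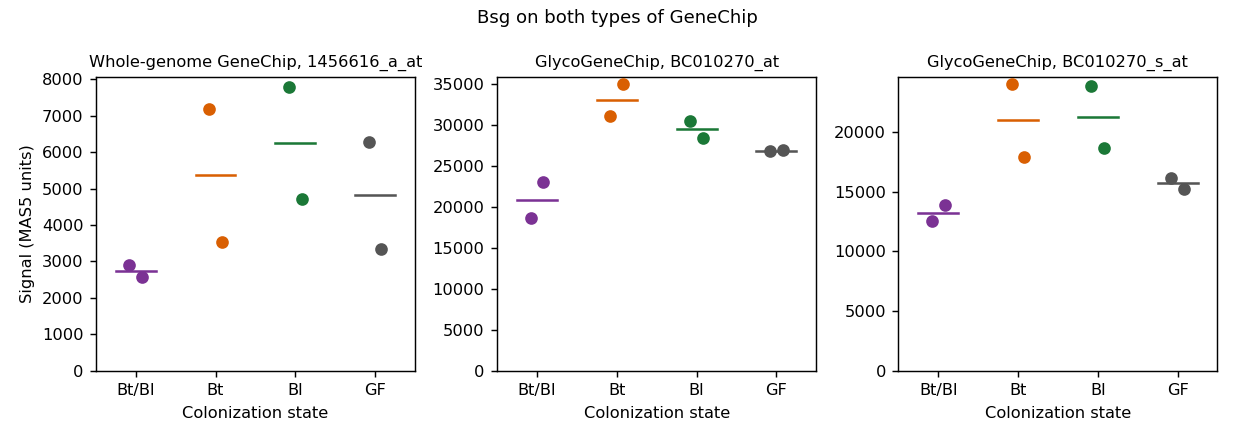
Signals of Bsg (y axes, MAS5 units, from 0) by colonization state (x axis) at its probe set on the whole-genome GeneChip and its 2 probe sets on the GlycoGeneChip, with a point for each GeneChip and a line at the mean of both. In each panel both Bt/Bl points lie below the 6 others.

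Slc16a3, a carrier that exports lactate from glycolytic cells, was too dim to test. Its signal at 1449005_at was 266.2 and 558.9 in Bt/Bl, 695.4 and 272.9 in Bt, 1162 and 87.5 in Bl, against 104.2 and 715.7 in GF. The duplicates of Bl and of GF were on opposite sides of the floor of 144.7, the 25th percentile of all values. Differences between states were not tested for Slc16a3 in the fit reported.

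Ffar2 is a G protein-coupled receptor for acetate and propionate that enteroendocrine cells and some leukocytes carry. Its probe set 1425216_at had 130.9 and 1397 in Bt/Bl, 2694 and 1920 in Bt, 621.8 and 560.1 in Bl, against 668.2 and 1609 in GF. Both Bt GeneChips were the highest of all 8, and both Bl GeneChips were below those of GF. The log2 fold change was 1.95 in Bt against Bl (standard error 1.02, unadjusted p = 0.0762, adjusted p = 0.482) and -2.34 in Bt/Bl against Bt (adjusted p = 0.437). The second value moved to -0.70 without the Bt/Bl GeneChip 9132, which was below the floor, and to -3.97 without 9133. The other probe set, 1425215_at, had 931.0 and 1458 in Bt/Bl, 1954 and 342.9 in Bt, 1508 and 1643 in Bl, against 1081 and 898.5 in GF. It did not share the order of the states, and its r to the first was -0.07. The 12 enteroendocrine markers summed to 51873 and 39903 in Bt/Bl, 58555 and 59492 in Bt, 42136 and 54126 in Bl, against 45753 and 44231 in GF. Of these, Gcg, Pyy, Chgb, Nts, Sct and Insl5 were well above the floor on all GeneChips. Pyy and Chgb were highest on both Bt GeneChips. Nts was highest on the Bt/Bl GeneChip 9132, Sct on the Bt/Bl GeneChip 9133, Insl5 on the Bt GeneChip 9130 and Gcg on the GF GeneChip 9129. In bulk samples fewer cells of a type and less RNA per cell cannot be told apart. The part of enteroendocrine cells or of leukocytes in the Ffar2 signals was not tested.

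Slc5a1 encodes the cotransporter that takes up glucose and galactose with sodium across the brush border. Its signal at 1419057_at was 6193 and 7242 in Bt/Bl, 9248 and 7069 in Bt, 6680 and 7060 in Bl, against 8968 and 11291 in GF. Those of Bt/Bl and Bl were below both GF values, and those of Bt overlapped with GF. The log2 fold change against GF was -0.59 in Bt/Bl (standard error 0.26, unadjusted p = 0.0409, adjusted p = 0.633), -0.55 in Bl (unadjusted p = 0.0532, adjusted p = 0.436) and -0.32 in Bt (adjusted p = 0.761). Between colonized states the differences did not pass, with 95% confidence intervals of -0.83 to 0.29 in Bt/Bl against Bt and of -0.60 to 0.52 in Bt/Bl against Bl. The other probe set, 1455431_at, ranged from 286.3 to 1993 with both ends of the range in GF. The patterns most like that of Slc5a1 over 8 GeneChips were those of Rpl11 (r = 0.98), Dipk1b (r = 0.97) and Rtcb (r = 0.96).

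Slc5a1 is also abundant in the small intestine, some of whose markers were lower in colonized states. Of 13 tested small intestinal genes 4 were called lower in Bt/Bl than in GF, namely Fabp6, Apoa1, Apob and Enpep, along with 2 in Bt and 3 in Bl, and none was called higher, where 0.197% of all probe sets were called in either direction in Bt/Bl against GF. In Bt/Bl 5 of the 13 had a log2 fold change above 0. Among them was Mttp, which loads lipid onto Apob, with 1453 and 1334 in Bt/Bl, 1121 and 941.0 in Bt, 1688 and 1810 in Bl, against 99.1 and 734.0 in GF. Apob, which packages lipid for export, had 21192 and 25030 in Bt/Bl, 36918 and 47778 in Bt, 28165 and 35409 in Bl, against 86650 and 81167 in GF. The 14 genes of the list on the GeneChip summed to 633074 and 670333 in Bt/Bl, 727648 and 684082 in Bt, 1073772 and 815152 in Bl, against 864731 and 743032 in GF, mostly from Fabp2. Anpep, an aminopeptidase of the brush border, was below the floor on 4 of 8 GeneChips. Of 8 tested markers of cecum and colon, 2 were called higher in Bt/Bl than in GF, 2 in Bt and 4 in Bl, and none lower. The shares of all probe sets called in either direction were 0.197%, 0.169% and 0.137%. The water channel Aqp8 was among those called in all 3 states. Of the 8 markers 5 had a log2 fold change above 0 in Bt/Bl, 7 in Bt and 8 in Bl. Slc26a3 had 357066 and 357893 in Bt/Bl, against 420244 and 396140 in GF. The part of small intestinal transcripts in the Slc5a1 signal was not tested.

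Slc2a1 encodes the facilitated glucose carrier that most proliferating cells use. Its signal was higher in all 3 colonized states than in GF on each of its 3 probe sets, without passing the test. At 1434773_a_at the signal was 157470 and 166264 in Bt/Bl, 182472 and 172661 in Bt, 201731 and 164324 in Bl, against 111569 and 108119 in GF. At 1426600_at it was 7532 and 6087 in Bt/Bl, 5582 and 4405 in Bt, 7881 and 6770 in Bl, against 4070 and 3087 in GF. On both probe sets all 6 GeneChips of colonized mice were above both of GF. At 1426599_a_at it was 77239 and 116959 in Bt/Bl, 87570 and 63022 in Bt, 97647 and 116573 in Bl, against 51841 and 71445 in GF, where 1 Bt GeneChip was below the higher GF GeneChip. Thus 2 of 12 probe sets, both of Slc2a1 and so not independent, had all colonized values above GF, as did 4.4% of all probe sets. None had all of them below GF, as 4.04% did.

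**Figure D4:**
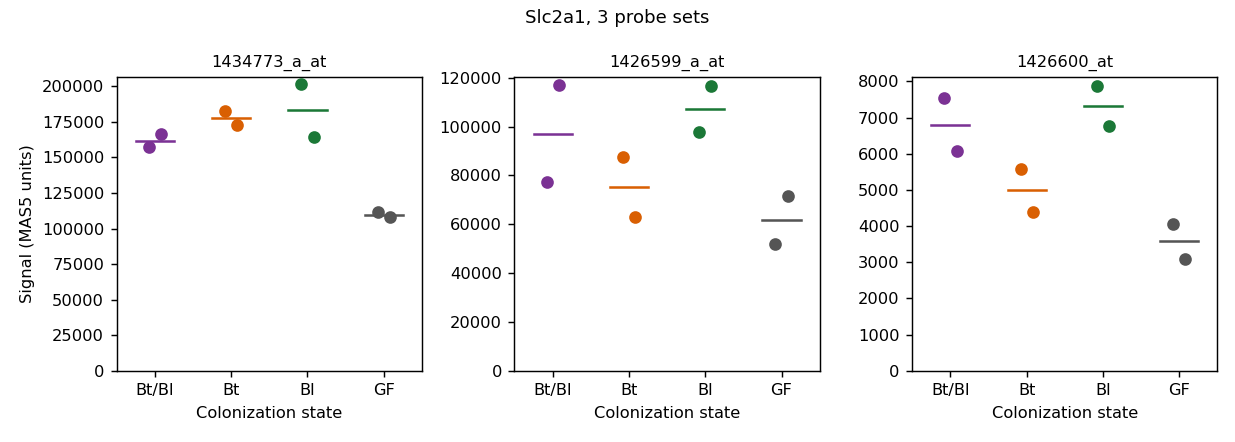
Signals of Slc2a1 (y axes, MAS5 units, from 0) by colonization state (x axis) at its 3 probe sets, with a point for each GeneChip and a line at the mean of both. At 1434773_a_at and 1426600_at every point of a colonized state lies above both GF points, and at 1426599_a_at Bt and GF overlap.

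At 1434773_a_at the log2 fold change against GF was 0.56 in Bt/Bl (1.47-fold, standard error 0.24, adjusted p = 0.605), 0.69 in Bt (1.62-fold, adjusted p = 0.338) and 0.73 in Bl (1.66-fold, adjusted p = 0.241). At 1426600_at it was 0.93 in Bt/Bl (adjusted p = 0.444), 0.48 in Bt (adjusted p = 0.664) and 1.04 in Bl (2.06-fold, standard error 0.30, unadjusted p = 0.00314, adjusted p = 0.199). At 1426599_a_at it was 0.64 in Bt/Bl, 0.29 in Bt and 0.81 in Bl. All 9 values were above 0. The mean of the 3 colonized states against GF, a comparison added after these signals had been seen, was 0.66 at 1434773_a_at (standard error 0.19, unadjusted p = 0.0039, adjusted p = 0.371), 0.82 at 1426600_at (adjusted p = 0.371) and 0.58 at 1426599_a_at (adjusted p = 0.508). Of the 12 probe sets 0 passed in that comparison, as 0.241% of all did.

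No difference in Slc2a1 between colonized states passed the test. At 1434773_a_at the log2 fold change in Bt/Bl was -0.13 against Bt (95% confidence interval -0.64 to 0.37) and -0.17 against Bl (-0.68 to 0.34). With both mono-associations near the level of Bt/Bl, the interaction was -0.86 (standard error 0.34, unadjusted p = 0.0214, adjusted p = 0.325). In Bt against Bl the difference was -0.56 at 1426600_at (adjusted p = 0.489), -0.52 at 1426599_a_at and -0.04 at 1434773_a_at. The 4 erythroid markers on the GeneChip, of which Alas2 was below the floor on 4 and Slc4a1 on 5 of 8 GeneChips, summed to 2357 and 1481 in Bt/Bl, 3117 and 2858 in Bt, 2421 and 2535 in Bl, against 911.7 and 1599 in GF. Their part in the Slc2a1 signal was not tested.

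The promoter windows of Slc2a1 and Slc5a1, the sugar carriers with a difference from GF at an unadjusted p under 0.05, follow with the same motifs in capitals. They lie at chr4:119108495-119108794 for Slc2a1 and chr5:33103969-33104268 for Slc5a1 on GRCm38.p6, both on the plus strand.
Slc2a1: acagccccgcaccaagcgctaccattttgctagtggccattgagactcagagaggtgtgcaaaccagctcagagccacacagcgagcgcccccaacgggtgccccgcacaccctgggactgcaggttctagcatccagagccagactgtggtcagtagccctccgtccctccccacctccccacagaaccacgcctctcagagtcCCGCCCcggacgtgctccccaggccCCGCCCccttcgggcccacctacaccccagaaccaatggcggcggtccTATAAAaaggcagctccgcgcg
Slc5a1: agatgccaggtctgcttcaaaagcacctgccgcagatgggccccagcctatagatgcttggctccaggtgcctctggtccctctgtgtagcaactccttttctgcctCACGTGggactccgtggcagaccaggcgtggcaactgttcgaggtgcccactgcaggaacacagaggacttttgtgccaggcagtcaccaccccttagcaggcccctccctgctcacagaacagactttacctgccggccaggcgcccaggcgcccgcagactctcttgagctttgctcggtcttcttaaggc
The Slc2a1 window held GC boxes at positions 206 and 231 and a TATA box at position 279, past the start that RefSeq gives. The Slc5a1 window held an E-box at position 108 and none of the other motifs. GC content was 65.3% for Slc2a1 and 60.3% for Slc5a1. Of the 10 genes 9 had at least 1 window in the RefSeq table, 12 windows in all, of which 7 held a GC box and 3 an E-box. Of these windows 4 were starts of Ffar2, and 2 of them overlap and hold the same GC box, which is counted in both.

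The remaining sugar carriers were near or below the filter. Slc2a5, the fructose carrier of the brush border, had 914.6 and 1211 in Bt/Bl, 1149 and 511.0 in Bt, 2314 and 1154 in Bl, against 1200 and 1050 in GF. The states overlapped in every comparison except Bt against Bl, where the log2 fold change was -1.09 (standard error 0.75, adjusted p = 0.605). Its nearest patterns over 8 GeneChips were those of Zap70 (r = 0.97), Itgb2l (r = 0.96) and Kif3c (r = 0.96). Slc2a2, the carrier that releases sugar on the basolateral side of small intestinal cells, had 782.1 and 95.9 in Bt/Bl, 815.6 and 57.4 in Bt, 64.9 and 194.8 in Bl, against 120.2 and 29.8 in GF. It was below the floor on 5 of 8 GeneChips, both of GF among them, and was not tested.

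**Figure D5:**
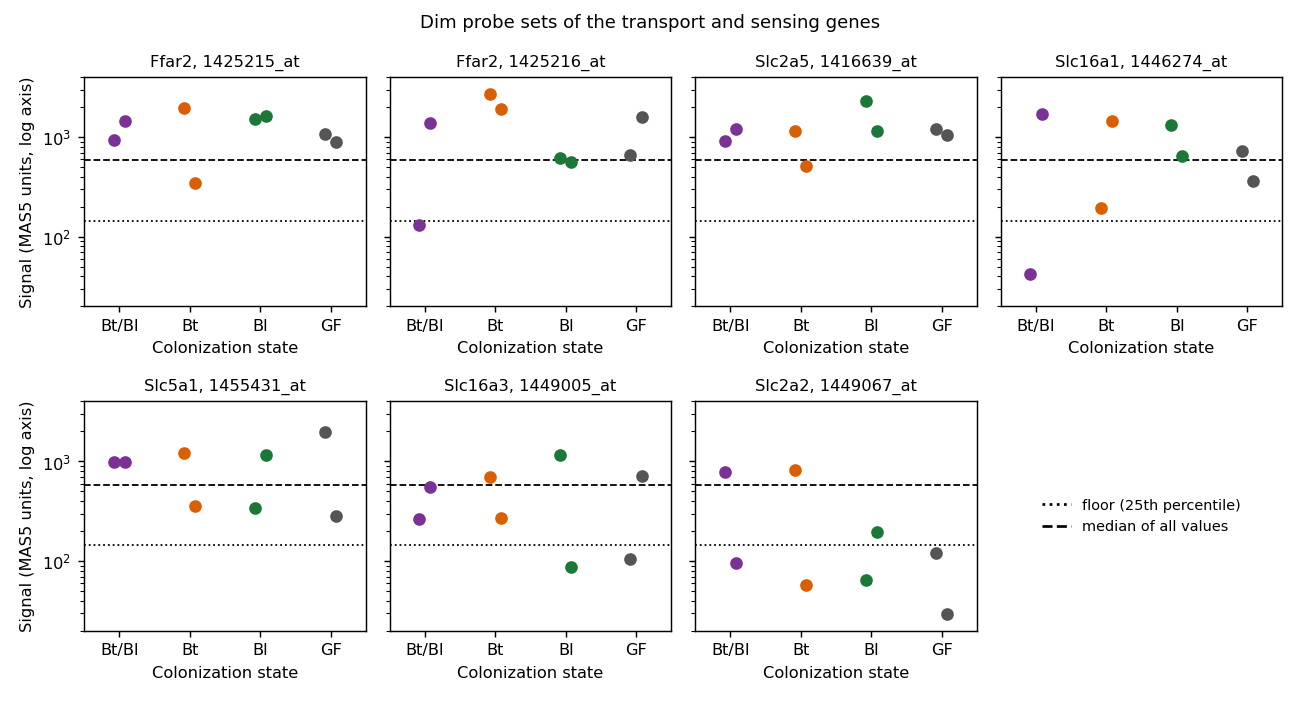
Signals of the 7 dim probe sets (y axis, MAS5 units, log axis) by colonization state (x axis), with a point for each GeneChip, a dotted line at the floor of 144.7 and a dashed line at the median of all values, 583.1. In each panel the duplicates of at least 1 state lie on opposite sides of the dashed line.

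Other genes of the same pathways were examined by lists, with the brightest tested probe set for each gene. Across 9 lists a single gene was called, in Bt/Bl against GF, where 0.197% of all probe sets were called. Slc9a3, the sodium-proton exchanger of the brush border that takes part in sodium absorption driven by short-chain fatty acids, had 6844 and 8193 in Bt/Bl, 26732 and 13163 in Bt, 20487 and 20141 in Bl, against 28279 and 23817 in GF. Both Bt/Bl GeneChips were the lowest of all 8. It fell in Bt/Bl against GF by 1.79 on the log2 scale (standard error 0.29, adjusted p = 0.0122), and its log2 fold change was -1.32 in Bt/Bl against Bt (adjusted p = 0.140) and -1.44 against Bl (adjusted p = 0.108). The call was kept under 5 of 17 alternative settings and lost under 12, with log2 fold changes between -1.92 and -1.66 and adjusted p between 0.0105 and 0.526, and its other probe set was too dim to test. The remaining 3 tested genes of the sodium pump and exchangers were not called in any comparison.

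Among 12 tested genes of short-chain fatty acid activation, oxidation and ketone bodies none was called against GF, and the median log2 fold change was -0.16 in Bt/Bl, -0.03 in Bt and -0.18 in Bl, against medians over all 12937 genes of 0.003, 0.005 and 5.6e-05. The lowest unadjusted p values in this list were those of Acat1, a thiolase of ketone body use, with -0.72 in Bl (adjusted p = 0.285), of Bdh1, a hydroxybutyrate dehydrogenase, with -0.59 in Bt/Bl (adjusted p = 0.536), and of Oxct1, which activates ketone bodies, with -0.53 in Bt (adjusted p = 0.484). Among 6 tested monocarboxylate carriers other than those above, none was called. Slc16a5 had log2 fold changes against GF of 0.18 in Bt/Bl, 0.59 in Bt and 0.62 in Bl (adjusted p = 0.513 in Bl). Its other probe set was dim, with -0.21 in Bt/Bl, 0.58 in Bt and 2.39 in Bl. It passed the filter only through Bl, so the last value is no test. Slc16a4 and Slc16a10, a carrier of aromatic amino acids, were dim, with 2.09 in Bt (adjusted p = 0.533) and -1.78 in Bt/Bl (adjusted p = 0.766). The Slc16a10 probe set passed the filter only through GF. Another tested probe set of Slc16a10 had -0.66 in Bt/Bl. Of the carrier chaperones and other acid receptors, Nptn, the relative of basigin, had 0.07 in Bt/Bl and the receptor Olfr78 had 0.73 (adjusted p = 0.999 and 0.931), while their other tested probe sets had -0.13 and -0.48.

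None of 5 tested hexose facilitators other than those above was called. Slc2a13, a proton-coupled carrier of myo-inositol, had 3411 and 3278 in Bt/Bl, 2777 and 2109 in Bt, 2754 and 2929 in Bl, against 6746 and 6904 in GF. Its 6 colonized values were below both GF values, with log2 fold changes against GF of -1.03 in Bt/Bl (adjusted p = 0.455), -1.50 in Bt (unadjusted p = 4.7e-04, adjusted p = 0.140) and -1.26 in Bl (adjusted p = 0.169). Slc2a3, below the floor on both GF GeneChips, and Slc2a6 were dim. Against GF they had values of up to 2.82 in Bt for Slc2a3 and 2.52 in Bl for Slc2a6 (adjusted p = 0.362 for Slc2a6). The Slc2a3 probe set passed the filter only through Bt, so its value in Bt is no test. The other tested probe set of Slc2a3 had 1.003 in Bt against GF (adjusted p = 0.771). Of 6 tested sodium-coupled solute carriers, Slc5a9 had 1981 and 2057 in Bt/Bl, 15653 and 30265 in Bt, 2447 and 1313 in Bl, against 2231 and 15805 in GF. Its GF duplicates differed widely, and the log2 fold change was -3.43 in Bt/Bl against Bt (adjusted p = 0.0983) and 3.60 in Bt against Bl (adjusted p = 0.0850). On its other 3 probe sets the first value ran from -1.77 to 0.10 and the second from 0.16 to 2.78. Slc5a3, a carrier of myo-inositol, had -0.69 in Bt against GF and Slc5a4a, below the floor on both Bt/Bl GeneChips, -2.22 in Bt/Bl against GF (adjusted p = 0.473 and 0.626).

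Downstream of uptake, 12 tested genes of glycolysis and lactate held no call against GF, with a median log2 fold change of -0.07 in Bt/Bl, 0.02 in Bt and 0.17 in Bl. Hk2, a hexokinase, had 8726 and 8106 in Bt/Bl, 5265 and 5430 in Bt, 5726 and 6771 in Bl, against 2947 and 4626 in GF. All 6 colonized values were above both GF values, and the log2 fold change against GF was 1.19 in Bt/Bl (unadjusted p = 0.00117, adjusted p = 0.225), 0.53 in Bt (adjusted p = 0.616) and 0.75 in Bl (adjusted p = 0.333). Pkm, a pyruvate kinase, had 0.84 in Bl and Aldoa, an aldolase, -0.35 in Bt/Bl (adjusted p = 0.387 and 0.825). In the list of 5 genes of fructose use and glucose release Tkfc, a triokinase, had -1.43 in Bt/Bl against GF (adjusted p = 0.446), Slc37a4 had -0.85 and Fbp1 1.10 in Bt.

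Among 12 tested regulators of sugar transport genes none was called. Txnip, an arrestin that lowers glucose uptake, had 46332 and 39674 in Bt/Bl, 47989 and 35006 in Bt, 22118 and 30140 in Bl, against 22478 and 22144 in GF. The signals of Bt/Bl and Bt lay above those of Bl and GF, with log2 fold changes against GF of 0.94 in Bt/Bl (adjusted p = 0.211), 0.88 in Bt (adjusted p = 0.213) and 0.21 in Bl (adjusted p = 0.760). Hif1a, the oxygen-regulated transcription factor, had 11073 and 10723 in Bt/Bl, 6069 and 5201 in Bt, 6153 and 8608 in Bl, against 4961 and 7444 in GF, and both Bt/Bl GeneChips were the highest of all 8 (log2 fold change 0.84 against GF, adjusted p = 0.482). Sp1, a factor that binds GC boxes, had -1.18 in Bl against GF (adjusted p = 0.279), with Bl duplicates of 1790 and 5202. Its other 2 tested probe sets had 0.08 and -0.55 in the same comparison.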

How the data were processed

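Cecal epithelium of 4 colonization states was profiled on Affymetrix whole-genome mouse GeneChips, 2 per state. The deposited values are linear signal intensities, which the authors obtained with MAS5 and which per the values are scaled on each of these GeneChips to the same mean of 1500.01, with 2% trimmed from each tail. The study's methods also name dChip. The study's bacterial RNA profiles were not analysed here. Values under the 25th percentile (144.7) were set to it before log2 was taken. Probe sets with both GeneChips of at least 1 state above 583.1 were kept, 64 control probe sets were left out, and 24865 were fitted over all 8 GeneChips with limma 3.58.1 (lmFit, contrasts.fit and eBayes with an intensity trend) in R 4.3.3, leaving 4 residual degrees of freedom, and p was adjusted by Benjamini-Hochberg. The GlycoGeneChip was fitted in the same way over 451 probe sets. Intervals are 95% confidence intervals, and all tests are two-sided. The fit was tested on simulated data. Of 45101 probe sets, 34958 had 1 gene symbol in the platform annotation, 932 had several and 9211 none.

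Every gene of the set is named with all its probe sets. From each pathway list the genes called were named or, with none called, up to 3 with the lowest unadjusted p against GF, by the brightest tested probe set. The genes and lists were chosen with earlier results of these data known. Alternatives were other scalings, floors and filters, no intensity trend, only the GeneChips compared, and leaving out each GeneChip in turn. The mean of the colonized states against GF and a fit without both GF GeneChips were added after seeing the data.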

Additional observations from a re-analysis of the deposited data

Results flagged for a closer look

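At the Ffar2 probe set 1425216_at the signal was 2694 and 1920 in Bt and 621.8 and 560.1 in Bl, against 668.2 and 1609 in GF, so that both Bt GeneChips were above and both Bl GeneChips below those of GF. The effect of Bt and that of Bl against GF differed by 1.95 on the log2 scale (standard error 1.02), and the test of that difference, which is the comparison of Bt with Bl, did not pass (adjusted p = 0.482, limma). The other probe set of Ffar2 did not show the same order, with a log2 fold change of -0.94 in Bt against Bl.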

How the results depend on the processing

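On the whole-genome GeneChip, 0 probe sets of the 10 genes that entered a fit passed the test in any of the 7 comparisons under the alternatives run. The 21 differences with the lowest unadjusted p were also followed by value, and none changed sign. They were chosen by p on the same GeneChips that the alternatives reuse, so a kept sign says little about them. No alternative was run on the GlycoGeneChip. Scaling each GeneChip to the same median put the median of all probe sets at -0.20 in Bt against GF and -0.32 in Bl against GF, where it was 0.02 and 0.05 as reported, and the value of Slc2a1 at 1434773_a_at at 0.48 and 0.38. Relative to the median of all probe sets these were 0.68 and 0.70, against 0.67 and 0.68 as reported. Such scaling multiplies all values of a GeneChip by the same factor, so these relative values could hardly move and test nothing. The mean of the colonized states against GF at 1434773_a_at, added after these signals had been seen, had an adjusted p of 0.371 as reported. Its lowest value was 0.0936, after quantile normalization. With the other scalings, floors and filters it ran from 0.186 (filter at the 75th percentile) to 0.629 (75th percentile scaling). Without an intensity trend it was 0.613. In that comparison the log2 fold change was 0.68 without the GF GeneChip 9128 and 0.64 without 9129. Those fits rest on 1 GF GeneChip and are given without p. Counts over all probe sets moved more: calls in Bt against GF ran from 0 without an intensity trend to 807 with only the GeneChips compared, against 42, and in Bl against GF from 0 to 747, against 34. Without both GF GeneChips 0 of 12 probe sets passed between colonized states. No paired analysis was possible because each state was a pool of its own mice, with no unit shared between states. Duplicates of 1 RNA pool give technical spread only, so the tests compare pools and not mice.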
